A study of Mus musculus with 6 samples.

Results

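The transcription factors that keep pancreatic islet cells endocrine were followed in mouse islets cultured with or without CMPF. The set was a list of 10 symbols, and 9 of them were measured among the 18193 genes of the array: Pdx1, Nkx6-1, Nkx2-2, Neurod1, Pax6, Isl1, Insm1, Mnx1 and Myt1. Mafa was not analysed here. The genes were listed by name, and the list was made with earlier results of these data known. Together they had 18 probe sets, which are groups of short probes that read the same transcript. A gene took its main value from whichever of its probe sets was brightest on average, and every other probe set is reported beside it.

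The islets came from male CD1 mice, an outbred strain, aged 8 weeks. After a night in culture they were kept for 24 hours in 0.1% ethanol, the vehicle, or in CMPF at 200 uM, with 3 arrays in each group. CMPF is a furan fatty acid metabolite that circulates in blood. Replicate 1, 2 and 3 of a group are the samples so numbered in the labels, which do not say whether they came from separate animals, so the tests measure the spread between these samples. Whole islets hold beta cells together with alpha, delta and PP cells, vessels, connective tissue and adhering exocrine cells, so fewer cells of a type and less RNA per cell cannot be told apart. The series title names metabolism as its subject, and the comparison here asks how the endocrine factors read with CMPF and with vehicle.

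Endocrine cells are specified in the embryo and kept in their identity in the adult by a network of DNA-binding proteins. Pdx1, Nkx6-1, Nkx2-2, Mnx1, Isl1 and Pax6 carry a homeodomain, a fold that in many such proteins reads short sites with a TAAT core, while proteins of the Nkx2 class prefer a different core. Neurod1 is a basic helix-loop-helix protein that binds E-boxes, and Insm1 and Myt1 are zinc finger proteins. In adult beta cells Pdx1 and Neurod1 drive the insulin genes, and Nkx6-1, Nkx2-2 and Mnx1 hold back the programmes of other islet cells. Pax6 and Isl1 act in all islet endocrine cells.

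In their main probe sets Pdx1, Neurod1 and Nkx2-2 had the most similar array-to-array patterns among the factors, as described further on. For that reason the 250 bases before their annotated start sites are shown. The 3 were picked after their values had been seen. The sequences are from RefSeq's GRCm38.p6 table, which held windows for 8 of the listed genes. They are written 5′ to 3′ on the strand of the gene. Capitals mark matches to the E-box CANNTG and to TAAT, searched on both strands and so also as ATTA.
Pdx1, chr5:147269847-147270096, plus strand: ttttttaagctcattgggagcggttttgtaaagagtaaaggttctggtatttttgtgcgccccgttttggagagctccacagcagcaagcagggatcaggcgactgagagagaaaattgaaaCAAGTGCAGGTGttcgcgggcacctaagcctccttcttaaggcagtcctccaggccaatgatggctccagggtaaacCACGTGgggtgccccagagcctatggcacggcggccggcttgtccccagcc
Neurod1, chr2:79456637-79456886, minus strand: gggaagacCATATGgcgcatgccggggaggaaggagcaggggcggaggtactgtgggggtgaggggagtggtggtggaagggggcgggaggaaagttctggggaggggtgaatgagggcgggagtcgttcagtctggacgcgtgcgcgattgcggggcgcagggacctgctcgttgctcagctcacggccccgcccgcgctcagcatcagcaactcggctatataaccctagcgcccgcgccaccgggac
Nkx2-2, chr2:147186403-147186652, minus strand: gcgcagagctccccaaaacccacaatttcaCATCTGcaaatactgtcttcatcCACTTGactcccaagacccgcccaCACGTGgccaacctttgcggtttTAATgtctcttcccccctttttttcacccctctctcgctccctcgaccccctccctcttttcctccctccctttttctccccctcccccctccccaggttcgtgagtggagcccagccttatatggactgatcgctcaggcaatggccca

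The Pdx1 window held 3 E-box matches and the Nkx2-2 window also 3, while the Neurod1 window held 1, at 242 bases before the start. An E-box match stood in 66.2% of all 32817 windows of this length, so such a match is common. The form CACGTG, which is counted within the E-box matches too, was rarer, in 6.02% of windows. Among the factors it stood in the windows of Pdx1, 51 bases before the start, and of Nkx2-2, 173 bases before it. The TAAT core was in 54.9% of windows, and of the 3 shown only that of Nkx2-2 held it, at 150 bases before the start. These matches describe letters in a window and not bound sites.

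No endocrine factor passed the test for a difference between CMPF and vehicle. Of the 9 factors 8 read lower with CMPF and 1 read higher, but the differences were small, with a median of -0.07 log2 units against 0.0018 over all genes. The sign turned to positive for Pdx1 after a second quantile normalization and to negative for Myt1 with arrays centred on their medians. All differences are CMPF minus vehicle on the log2 scale. Limma's moderated test, adjusted over all genes by the Benjamini-Hochberg method, called 0 of the 9 and 0 of 18193 genes (0%, adjusted p = 0.99995 for each of the 9). An unadjusted p under 0.05 was reached by 0 of the 9, where 1.13% of all genes reached it. The groups overlapped for all 9 factors, and they did not overlap for 4.52% of all genes. The median absolute difference was 0.0659 for the factors and 0.0673 for all genes. For genes above the median level, where 8 of the 9 factors lay, it was 0.0555.

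For 8 of the 9 factors the 95% interval of the difference lay within 0.5 log2 units of 0, which is a change of 1.41-fold in either direction. Insm1 was the exception. Smaller changes than these intervals could not be told from 0 in this fit, which leaves out the replicate number. With the replicate number as a block in the fit the median SE of the 9 factors was 0.0829 in place of 0.150. Intervals from that fit are not given.

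**Figure D1:**
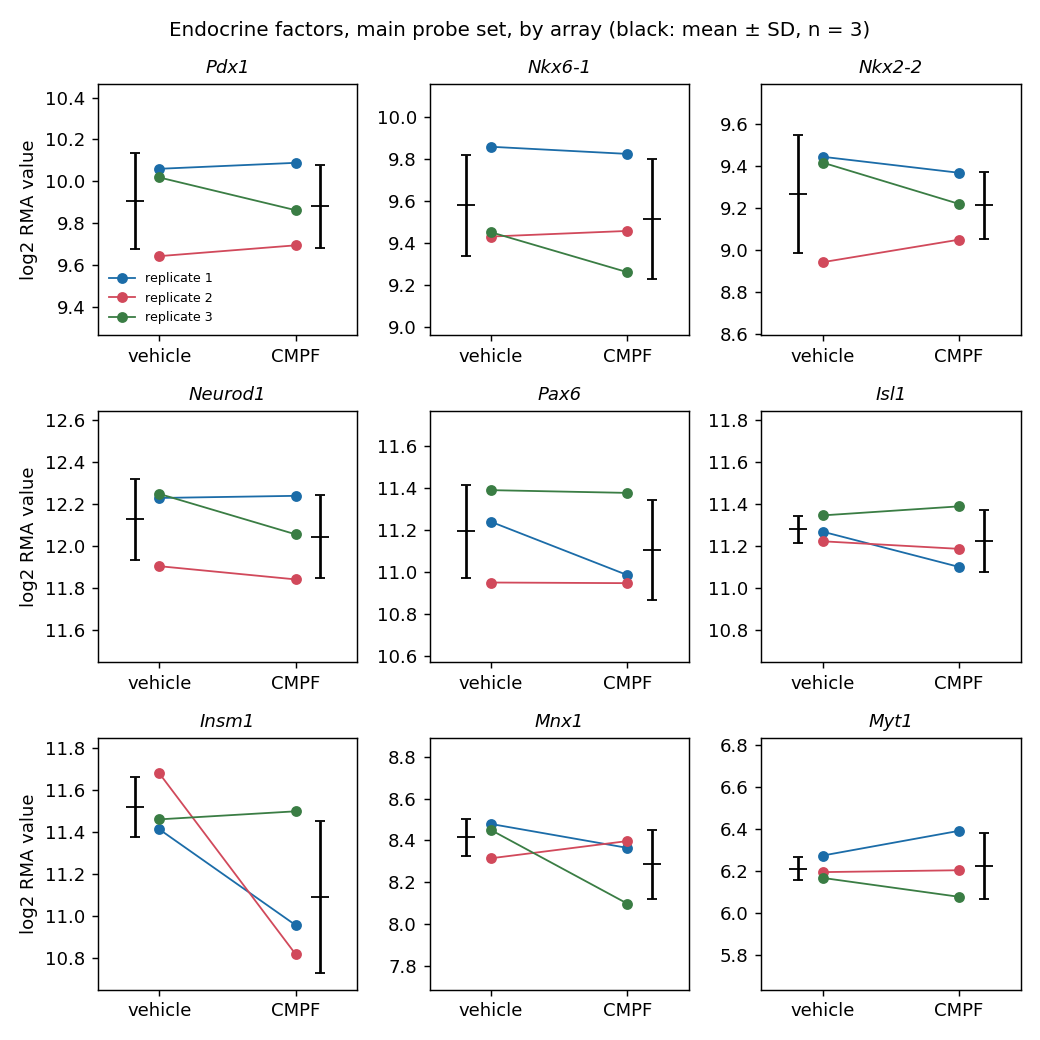
Log2 RMA value (vertical axis) of the main probe set of each of the 9 endocrine factors on the vehicle and CMPF arrays; lines join arrays of the same replicate number, black bars are mean ± SD, n = 3, and each panel spans the same height. The groups overlap in every panel; for Insm1 replicates 1 and 2 lie lower with CMPF and replicate 3 does not, and for Mnx1 the lines cross.

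Pdx1, the homeodomain activator of the insulin genes, read 10.06, 9.64 and 10.02 on vehicle arrays 1, 2 and 3 and 10.09, 9.70 and 9.86 on the CMPF arrays. Array 2 was the lowest in both groups, and the groups overlapped almost fully. The difference was -0.03 (SE 0.150, 95% interval from -0.38 to 0.33). Its dimmer probe set differed by -0.06 (SE 0.148), with pair differences of 0.14, -0.21 and -0.11. Here a pair is the vehicle and the CMPF array of the same number.

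Nkx6-1, the repressor that keeps beta cells from alpha cell genes, read 9.86, 9.43 and 9.45 with vehicle and 9.83, 9.46 and 9.26 with CMPF. Array 1 stood above the others in both groups. The difference was -0.07 (SE 0.177), with an interval from -0.48 to 0.35. It had 1 probe set.

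Nkx2-2, a homeodomain factor needed for beta cell formation, read 9.45, 8.94 and 9.42 with vehicle and 9.37, 9.05 and 9.22 with CMPF. Array 2 was again the lowest in both groups. The difference was -0.06 (SE 0.158), and the pairs went both ways, by -0.08, 0.11 and -0.20.

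Mnx1, which is also needed to keep beta cell identity, read 8.48, 8.32 and 8.45 with vehicle and 8.36, 8.40 and 8.10 with CMPF. CMPF array 3 was the lowest of the 6, and the other CMPF arrays lay within the vehicle range. The difference was -0.13 (SE 0.110, interval from -0.39 to 0.13), with a pair difference of -0.35 in pair 3.

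Pax6, a paired-domain and homeodomain factor that also activates the glucagon gene, read 11.24, 10.95 and 11.39 with vehicle and 10.98, 10.95 and 11.38 with CMPF. It was the only factor whose main probe set was lower with CMPF in all 3 pairs, a share of 1 in 9 beside 11.1% of all genes, and after a second quantile normalization 0 factors were. Pair 1 carried nearly all of this, with a difference of -0.25, while pairs 2 and 3 differed by -0.003 and -0.01. The mean difference was -0.09 (SE 0.159).

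The 5 Pax6 probe sets did not go the same way. The next brightest read 8.99, 8.68 and 9.14 with vehicle and 8.78, 8.45 and 9.03 with CMPF, lower in all 3 pairs (-0.18, SE 0.174). Its name ending, _a_at, marks probes shared by transcripts of the same gene. A dim probe set read 4.81, 4.54 and 4.95 with vehicle and 5.36, 4.86 and 5.12 with CMPF, so that CMPF was above vehicle in all 3 pairs. Its difference was 0.35 (SE 0.157, interval from -0.02 to 0.71, adjusted p = 0.99996 over 45037 probe sets). That level is below the median gene level of 6.42 on these arrays, and the files carry no detection call. The other dim sets differed by -0.07 (SE 0.115) and 0.10 (SE 0.150).

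Isl1, a LIM homeodomain factor of all islet endocrine cells, read 11.27, 11.22 and 11.34 with vehicle and 11.10, 11.18 and 11.39 with CMPF. It had the narrowest range of the 9 over the 6 arrays, 0.29. The difference was -0.05 (SE 0.103, interval from -0.29 to 0.19). A second probe set, with 10.27, 10.26 and 10.44 against 10.09, 10.23 and 10.31, was lower in all 3 pairs and differed by -0.11 (SE 0.102).

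Neurod1, the helix-loop-helix partner of Pdx1 at the insulin promoter, read 12.23, 11.90 and 12.25 with vehicle and 12.24, 11.84 and 12.05 with CMPF. The difference was -0.08 (SE 0.141). Its other probe set read 11.37, 11.28 and 11.42 with vehicle and 11.26, 10.96 and 11.30 with CMPF. There CMPF was lower in all 3 pairs, and the difference was -0.18 (SE 0.115, interval from -0.45 to 0.08). The groups still overlapped, because CMPF array 3 lay above vehicle array 2.

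Insm1, a zinc finger repressor that endocrine precursors need to mature, had the largest difference of the 9 in their main probe sets. Its main probe set read 11.41, 11.68 and 11.46 with vehicle and 10.96, 10.82 and 11.50 with CMPF. CMPF arrays 1 and 2 lay below every vehicle array, and CMPF array 3 lay inside the vehicle range. The vehicle mean was 11.52 ± 0.14 (SD, n = 3), and the CMPF mean was 11.09 ± 0.36 (SD, n = 3). The difference was -0.43 (SE 0.182), or 0.744 times the vehicle level, with an interval from 0.553 to 1.00 times. The unadjusted limma p was 0.0501 over genes and the adjusted p was 0.99995. In the fit over all probe sets these were 0.0450 and 0.99996. With the replicate number as a block in limma's fit its adjusted p was 0.979 and its unadjusted p was 0.0408. An unadjusted p under 0.05 with the block was reached by 1 factor, Insm1, and by 3.80% of all genes.

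The second Insm1 probe set did not show this difference, though it was almost as bright (mean over the 6 arrays 11.28 beside 11.31). It read 11.35, 11.14 and 11.35 with vehicle and 11.41, 11.22 and 11.23 with CMPF, a difference of 0.0078 (SE 0.106, interval from -0.24 to 0.25). The main set exceeded the second set by 0.07, 0.54 and 0.11 on the vehicle arrays, and the same gap was -0.46, -0.40 and 0.27 on the CMPF arrays. The gap between the probe sets differed by -0.44 between the groups (exact permutation test over arrays, two-sided, p = 0.3, where 0.1 is the smallest p that 3 against 3 can give). This gap was chosen after its values were seen, among 9 such gaps between a main and another probe set. The gap between the main and the dim Pax6 set that read higher differed by as much, -0.44 (exact permutation test, two-sided, p = 0.1, the smallest possible). The deposited values do not say which set reads the Insm1 transcript better, and both lay above the median gene level.

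Myt1, a zinc finger factor of endocrine differentiation, was the dimmest factor and the only one with a positive difference. It read 6.27, 6.19 and 6.17 with vehicle and 6.39, 6.20 and 6.08 with CMPF, a difference of 0.01 (SE 0.105). Centring each array on its median gave -0.0096. Its other probe set read between 2.96 and 3.33 on all arrays, so a dim signal there could not be told from none.

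**Figure D2:**
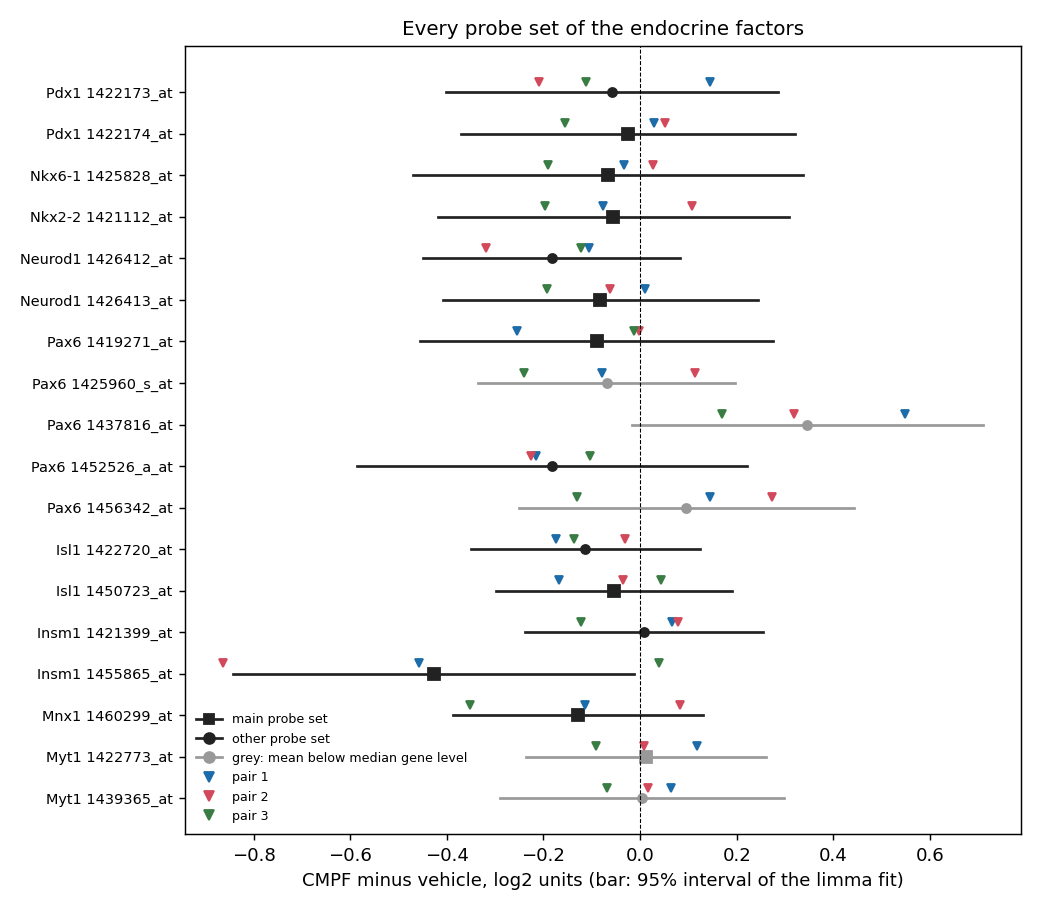
CMPF minus vehicle in log2 units (horizontal axis) for all 18 probe sets of the 9 factors, from the limma fit over 45037 probe sets; squares are main probe sets, circles the others, grey those below the median gene level, bars 95% intervals and triangles the 3 pair differences. The Insm1 sets stand at -0.43 and 0.0078, and a dim Pax6 set stands at 0.35.

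Across the 18 probe sets 13 differences were negative and 5 positive, and 0 passed (smallest adjusted p = 0.99996). CMPF was lower in all 3 pairs in 4 of them and higher in 1. Probe sets of the same gene are not independent, so these counts describe 9 genes. Among all 45037 probe sets 11% were lower and 12% higher in all 3 pairs.

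The factors also varied between the replicate numbers. For 8 of the 9 factors (88.9%) the range between the numbers, each taken as the mean of its vehicle and CMPF array, was larger than the difference between the groups. All genes gave nearly the same share, 87.5%, so nothing particular to the factors is read from it. For Pdx1 that range was 0.40 beside a group difference of -0.03, and for Nkx6-1 it was 0.49 beside -0.07. Insm1 was the exception, with 0.30 beside -0.43. With the block the median SE of the 9 factors was 0.0829 in place of 0.150, and again 0 passed.

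In their main probe sets Pdx1, Neurod1 and Nkx2-2 had similar patterns over the arrays. The other probe sets of Pdx1 and Neurod1 were not compared in this way, and distances between other genes were not worked out. After each gene was centred on its own mean over the 6 arrays, Pdx1 and Neurod1 differed from each other by 0.0363 log2 units on average, Pdx1 and Nkx2-2 by 0.0375, and Nkx2-2 and Neurod1 by 0.0469. These were the smallest of the 36 distances between factors, and the next, between Mnx1 and Myt1, was 0.0944. The widest, between Nkx6-1 and Insm1, was 0.409. Replicate 2 was the lowest array of both groups for Pdx1, Nkx2-2, Neurod1 and Pax6, which is 4 of 9 factors, and for 19.6% of all genes. Replicate 1 was the highest array of both groups for Pdx1, Nkx6-1, Nkx2-2 and Myt1, also 4 of 9 factors, and for 16.7% of all genes.

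Markers of exocrine cells varied over the same arrays. Of the 15 measured acinar markers 13 were highest on the replicate 2 arrays of both groups. Among these were Cela3b, Ctrb1 and Prss2, which encode digestive proteases. The exceptions were Bhlha15 and Rbpjl, which encode acinar transcription factors. The share of all genes highest there was not worked out. The mean deviation of the list from the mean of the 6 arrays was -0.17, 0.65 and -1.05 on vehicle arrays 1, 2 and 3 and 0.09, 0.71 and -0.24 on the CMPF arrays. Its summed linear signal ran from 43405 to 128175 with vehicle and from 73263 to 135273 with CMPF. Of the 15 markers 11 were higher with CMPF in all 3 pairs, beside 11.8% of all genes, and 0 passed the adjusted test. These markers varied together, so the count does not stand for separate results. The 10 duct markers, led by Krt18, had deviations of -0.16, 0.57 and -0.39 with vehicle and -0.31, 0.35 and -0.05 with CMPF. They summed between 11410 and 17393 with vehicle and between 11872 and 17355 with CMPF. Of these markers 7 were highest on replicate 2 of both groups, and Krt7, Car2 and Tspan8 were not. Krt7 was lowest there in both groups. Car2 read 8.14 on vehicle array 2 and 5.38 on CMPF array 2. In pair 3, where the acinar markers differed by a median of 0.93, the factors differed by a median of -0.16. In pairs 1 and 2 these medians were 0.27 and 0.04 for the acinar markers and -0.08 and 0.0089 for the factors. None of the markers is listed at 0 in these files, but they carry no detection call. Of the acinar markers 1 and of the duct markers 4 lay below the median gene level of 6.42. The part of exocrine RNA in the factors' values was not tested.

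**Figure D3:**
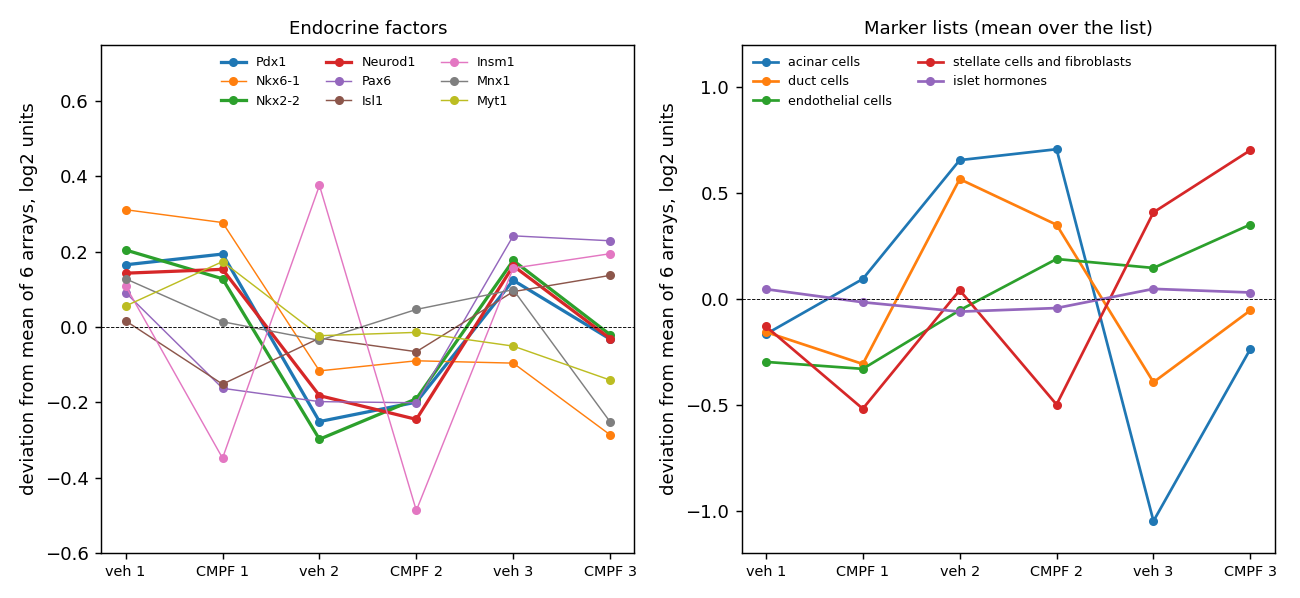
Deviation from the mean of the 6 arrays in log2 units (vertical axis), arrays ordered by replicate number; the left panel shows the 9 factors, with Pdx1, Neurod1 and Nkx2-2 in thick lines, and the right panel, on a wider axis, shows the mean over each marker list. The thick lines dip on both replicate 2 arrays, where the acinar markers stand at 0.65 and 0.71.

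Other cell types varied too. Stellate and fibroblast markers, led by Col3a1, summed between 9801 and 14929 with vehicle and between 7365 and 17782 with CMPF. Of their 12 differences 11 were negative, and 0 markers were lower in all 3 pairs. Their pair medians were -0.35, -0.51 and 0.29. Most of these markers varied together, so the count does not stand for separate results. Endothelial markers, led by Eng, summed between 1401 and 1827 and between 1298 and 2015. Of these 12 markers 4 were higher in all 3 pairs, beside 11.8% of all genes, and 0 passed the adjusted test. Macrophage markers, led by Cd14, summed between 1824 and 2833 and between 1856 and 2760, but Cd14 made up most of that spread, and the other 11 summed between 1376 and 1487 with vehicle and between 1243 and 1564 with CMPF. Schwann cell markers, led by Gfra3, summed between 399 and 450 and between 387 and 504. Their part in the factors' values was not tested either. The islet hormones read near the top of the scale, where small differences are hard to see: Ins2, insulin, read 14.69 in both groups, Gcg, glucagon, 14.42 and 14.35, Sst, somatostatin, 13.86 in both, and Ppy, pancreatic polypeptide, 14.34 and 14.31. Ins1 was not analysed here.

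By a fixed rule, the 5 genes nearest to the mean pattern of the factors were sought among 5286 other genes above the median level that varied at least as much. They were Trio, Mtf1, Glt8d1, Prrc2a and Chga, with mean absolute differences from the pattern of 0.0164, 0.0215, 0.0243, 0.0248 and 0.0258 log2 units over the 6 arrays. The factors themselves all lay further from this average, from 0.0636 for Neurod1 to 0.244 for Insm1. Nearness to it is therefore not likeness to any single factor. Chga, chromogranin A of endocrine secretory granules, read 13.60, 13.36 and 13.54 with vehicle and 13.58, 13.30 and 13.46 with CMPF. Like Pdx1 and 19.6% of all genes, it was lowest on array 2 of both groups.

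Genes around the factors in the network were described from lists of names. Of the 11 measured beta cell target genes 0 passed (adjusted over all genes with limma), 8 read lower and 3 higher with CMPF, and 2 were lower in all 3 pairs beside 11.1% of all genes. Their median difference was -0.05, and the pair medians were -0.0053, -0.0036 and -0.18. G6pc2, the islet glucose-6-phosphatase, differed by -0.10 (SE 0.0976), Pcx, pyruvate carboxylase, by -0.11 (SE 0.112) and Glp1r, the GLP-1 receptor, by -0.13 (SE 0.224). Of the 11 target genes 9 were highest on replicate 1 of both groups, beside 16.7% of all genes. They shared this order, so the count does not stand for separate results. Ucn3, a marker of mature beta cells, and Slc2a2, the glucose transporter, were named as examples after their values were seen. Their ranges over the 6 arrays, 1.61 and 1.83, were the widest of the list. Ucn3 read 10.05, 9.16 and 9.05 with vehicle and 10.21, 8.87 and 8.61 with CMPF. Slc2a2 read 10.91, 10.30 and 10.07 with vehicle and 11.46, 10.27 and 9.63 with CMPF.

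Of the 12 measured paralogs of the factors 0 passed, 8 read higher and 4 lower, and 4 were higher in all 3 pairs beside 11.8% of all genes. The median was 0.03, with the sign turned (-0.02) when genes below the median level were left out, and 8 of the 12 were below it. Those with the smallest p were dim. Neurod6 differed by 0.13 (SE 0.0805) at a mean near 2.34 with vehicle, Nkx6-2 by 0.17 (SE 0.116) and Isl2 by 0.12 (SE 0.112). Neurod6 was the 1 paralog of 12 without overlap between the groups, beside 4.52% of all genes. St18, the brightest paralog and a relative of Myt1, was named after its values were seen. It read 10.26 ± 0.05 (SD, n = 3) in the vehicle group, beside 10.19 ± 0.18 (SD, n = 3) in the CMPF group.

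Of 11 other endocrine and islet cell type factors 0 passed, with 5 differences positive and 6 negative and a median of -0.01, or 0.02 after a second quantile normalization. Prox1, a homeodomain factor of pancreas progenitors, read 7.68, 7.22 and 7.37 with vehicle and 7.002, 6.92 and 7.36 with CMPF (-0.33, SE 0.160). It was lower in all 3 pairs, although pair 3 differed by only -0.0044. With Rfx3 and Tshz1 this held for 3 of the 11, beside 11.1% of all genes. Rfx3, a regulator of endocrine differentiation, differed by -0.16 (SE 0.121) and Irx1, an alpha cell factor, by 0.11 (SE 0.149).

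Of 17 cofactors 0 passed, with 7 differences positive and 10 negative and a median of -0.02, or 0.01 after a second quantile normalization. Ep300, the acetyltransferase that Pdx1 and Neurod1 recruit, read 8.67, 8.46 and 8.46 with vehicle and 8.29, 8.25 and 8.41 with CMPF. Every CMPF array lay below every vehicle array, by a mean difference of -0.21 (SE 0.0982), and it was the 1 cofactor of 17 without overlap, beside 4.52% of all genes. Ldb2, a LIM domain-binding adaptor that is also expressed in endothelium, differed by 0.26 (SE 0.122) at a dim level, and Rcor1, part of the corepressor complex that Insm1 recruits, by -0.17 (SE 0.180).

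**Figure D4:**
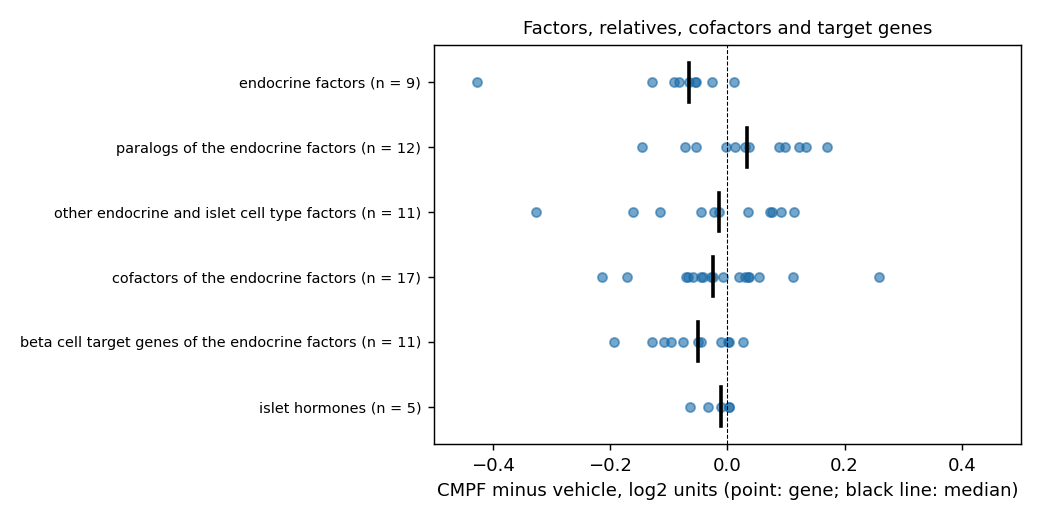
CMPF minus vehicle in log2 units (horizontal axis) for each gene (points) of the endocrine factors and 5 related lists, with the median of a list as a black line. The points of the factors lie between -0.43 and 0.01, and the list medians lie between -0.07 and 0.03.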

How the data were processed

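RNA of 6 islet samples was hybridised to an Affymetrix mouse 3′ array, from 200 ng of total RNA per the labels. The deposited values are on the log2 scale; per the submitters' processing notes, the authors used RMA and version 1.1 of Affymetrix Expression Console. RMA equalises the arrays and compresses differences of dim genes. The RMA settings were not given in the sources used here. Array medians lay between 5.07 and 5.14. The number of arrays limits the precision.

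Of 45101 probe sets 64 controls were left out, and 34945 named 1 gene, 932 several and 9160 none. By Entrez ID 34741 matched RefSeq, and 0 symbols changed. Groups were compared with lmFit and eBayes (limma 3.58.1 under R 4.3.3) by a two-sided test at an adjusted p of 0.05, without a filter. The code was tested on simulated data. Deviations from group means correlated at 0.488 or more between arrays of the same number and at 0.0885 or less otherwise. The numbers were therefore taken as pairs, from the data. Centring within a group ties the correlations of an array to each other, so the low values are not separate support. The pairing was then used on the same values.

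The factors and gene lists were chosen with earlier results of these data known. The text names every factor, the 3 genes of smallest p in each related list, leading cell markers, hormones and nearest patterns. Alternatives were the replicate block, leaving out arrays or pairs, other probe sets, other scaling, a filter and array weights.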

Additional observations from a re-analysis of the deposited data

How the results depend on the processing

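No gene passed the threshold (0 of them) under any alternative, the replicate block included, and the factors' median difference stayed negative in all of them. It was -0.07 with the block, -0.04 after a second quantile normalization, -0.09 with arrays centred on their medians and -0.14 with array weights. Leaving out an array or a pair moved it between -0.18 (without vehicle 2) and -0.012 (without CMPF 2). The count of factors lower with CMPF in all 3 pairs was 1 (Pax6). It was 3 with the mean of a gene's probe sets (Neurod1, Isl1 and Insm1), 2 with the dimmest probe set (Neurod1 and Isl1), 3 with centred arrays (Nkx6-1, Neurod1 and Pax6) and 0 after a second quantile normalization. With the mean of its probe sets 1 factor, Insm1, had no overlap. Leaving out arrays or pairs, with the remaining pairs counted, gave 2 to 4 lower, 0 to 2 higher and 0 to 2 without overlap. In the main setting 11.1% of all genes were lower in all 3 pairs. The shares of all genes under the alternatives were not worked out. Such counts are easier to reach with fewer pairs or arrays, so nothing particular to the factors is read from them.

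Signs of single factors turned in some settings. Pdx1 was 0.0141 after a second quantile normalization. Pax6 was 0.0202 with the mean of its probe sets and 0.10 with the dimmest, and Insm1 0.0078 with its dimmer set. Myt1 was -0.0096 with centred arrays and -0.0216 with array weights. Leaving out arrays or pairs gave -0.16 to 0.0681 for Pdx1, -0.22 to 0.0733 for Nkx6-1, -0.22 to 0.033 for Nkx2-2 and -0.19 to 0.0203 for Neurod1. It gave -0.23 to 0.0084 for Pax6, -0.14 to 0.0088 for Isl1 and -0.0716 to 0.0858 for Myt1. Insm1 stayed between -0.66 and -0.21, and Mnx1 between -0.23 and -0.02. The causes were not tested.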
